A study of Mus musculus with 25 samples.

Results

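The genes described here encode 10 integrin subunits of macrophages: the α subunits Itgal, Itgam, Itgax, Itga4, Itga5, Itga6 and Itgav and the β subunits Itgb2, Itgb1 and Itgb7. Their rows were found by gene symbol, 10 of the 24411 genes counted, and all 10 were detected. The bone marrow-derived macrophages (BMDMs) came from C57BL/6 mice and were grown from marrow with 25 ng/ml M-CSF, the macrophage growth factor, for 4 days. Control BMDMs were cultured for a further 4 h without stimulus. Activated BMDMs received 100 U/ml IFN-γ and 100 ng/ml LPS, a bacterial cell wall component, for 1, 4, 12 or 24 h. The study calls these cells IFN-γ-primed and LPS-stimulated, but the labels name both agents with a single time, and whether or how long IFN-γ preceded LPS is not given in the sources used here. Alternatively activated BMDMs received 10 ng/ml IL-4 or 10 ng/ml IL-13 for 12 h. There were 3 samples in each of these 7 BMDM groups, and 1 control group served every BMDM comparison, so control time was not matched to the 1, 12 and 24 h groups. RAW264.7 is an established mouse macrophage line, which the study traces to Balb/c mice infected with Abelson murine leukemia virus. It was grown in RPMI without M-CSF and left untreated or given 100 ng/ml LPS without IFN-γ for 4 h, with 2 samples each. The study asked which genes each form of activation switches in primary macrophages and in the line.

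Integrins are heterodimers of one α and one β chain that bind macrophages to other cells and to matrix. Itgb2 (CD18) pairs with Itgal to form LFA-1, with Itgam to form Mac-1 (complement receptor 3) and with Itgax to form complement receptor 4. Itgb1 pairs with Itga4 (VLA-4, a receptor of VCAM-1 and fibronectin), Itga5 (the classical fibronectin receptor), Itga6 (a laminin receptor) and Itgav, whereas Itgb7 pairs with Itga4 as a gut homing receptor. An α chain reaches the cell surface only with a β chain, and binding is further set by activation of the dimer, which RNA levels do not show.

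In mm10 coordinates (GENCODE M21), Itgal (chr7:127296260-127335138), Itgam (chr7:128062640-128118491) and Itgax (chr7:128129547-128150657) lie on one stretch of chromosome 7, all on the plus strand. Itga6 (chr2:71745616-71858416), Itga4 (chr2:79255426-79333123) and Itgav (chr2:83724397-83806916) lie on the plus strand of chromosome 2. Itgb7 (chr15:102215995-102231944) and Itga5 (chr15:103344286-103366763) lie on the minus strand of chromosome 15. Itgb2 lies at chr10:77530252-77565708 and Itgb1 at chr8:128685654-128733200, both on the plus strand. All 10 are protein-coding, and counts were summed over the whole gene.

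Libraries held 2378639 to 3357300 counts on the sense strand of genes, of which 20.1% to 39.8% lay in Rn45s, the ribosomal RNA precursor, and the remaining 1502618 to 2532496 were used. Values are CPM, read counts without Rn45s scaled to a common library total after TMM normalisation. Errors are SDs over samples. Macrophage markers were present throughout, although Mertk was at 0 in RAW264.7. Tnf, Nos2, Chil3 and Retnla were checked against the labels. Tnf was at 27.7 to 28.5 CPM in control BMDMs against 8973 to 11357 CPM at 1 and 4 h. Chil3 was above 668 CPM only after IL-4 or IL-13. Nos2 was at 0 CPM in control BMDMs, 0.645 to 1.52 CPM at 1 h and 368 to 501 CPM at 4 h. Retnla was scarce, at 1.11 to 2.39 CPM after IL-4, 0 to 1.01 CPM after IL-13 and 0 in all other groups. Rn45s counts on the opposite strand made up 0.0386% to 0.122% of its counts in the control, 1, 4 and 12 h BMDM libraries but 0.00603% to 0.0214% in the 24 h, IL-4 and IL-13 libraries. These 2 sets do not overlap, no label gives a batch, and the part of this split in any comparison across it was not tested. RAW264.7 libraries held 0.0199% to 0.0283%, below all of the first set, and the part of this in comparisons with BMDMs was not tested. The 12 h sample 3 stood apart from the other two 12 h samples for several of the subunits. Values are RNA per bulk culture, in which fewer expressing cells and less RNA per cell cannot be told apart.

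**Figure D1:**
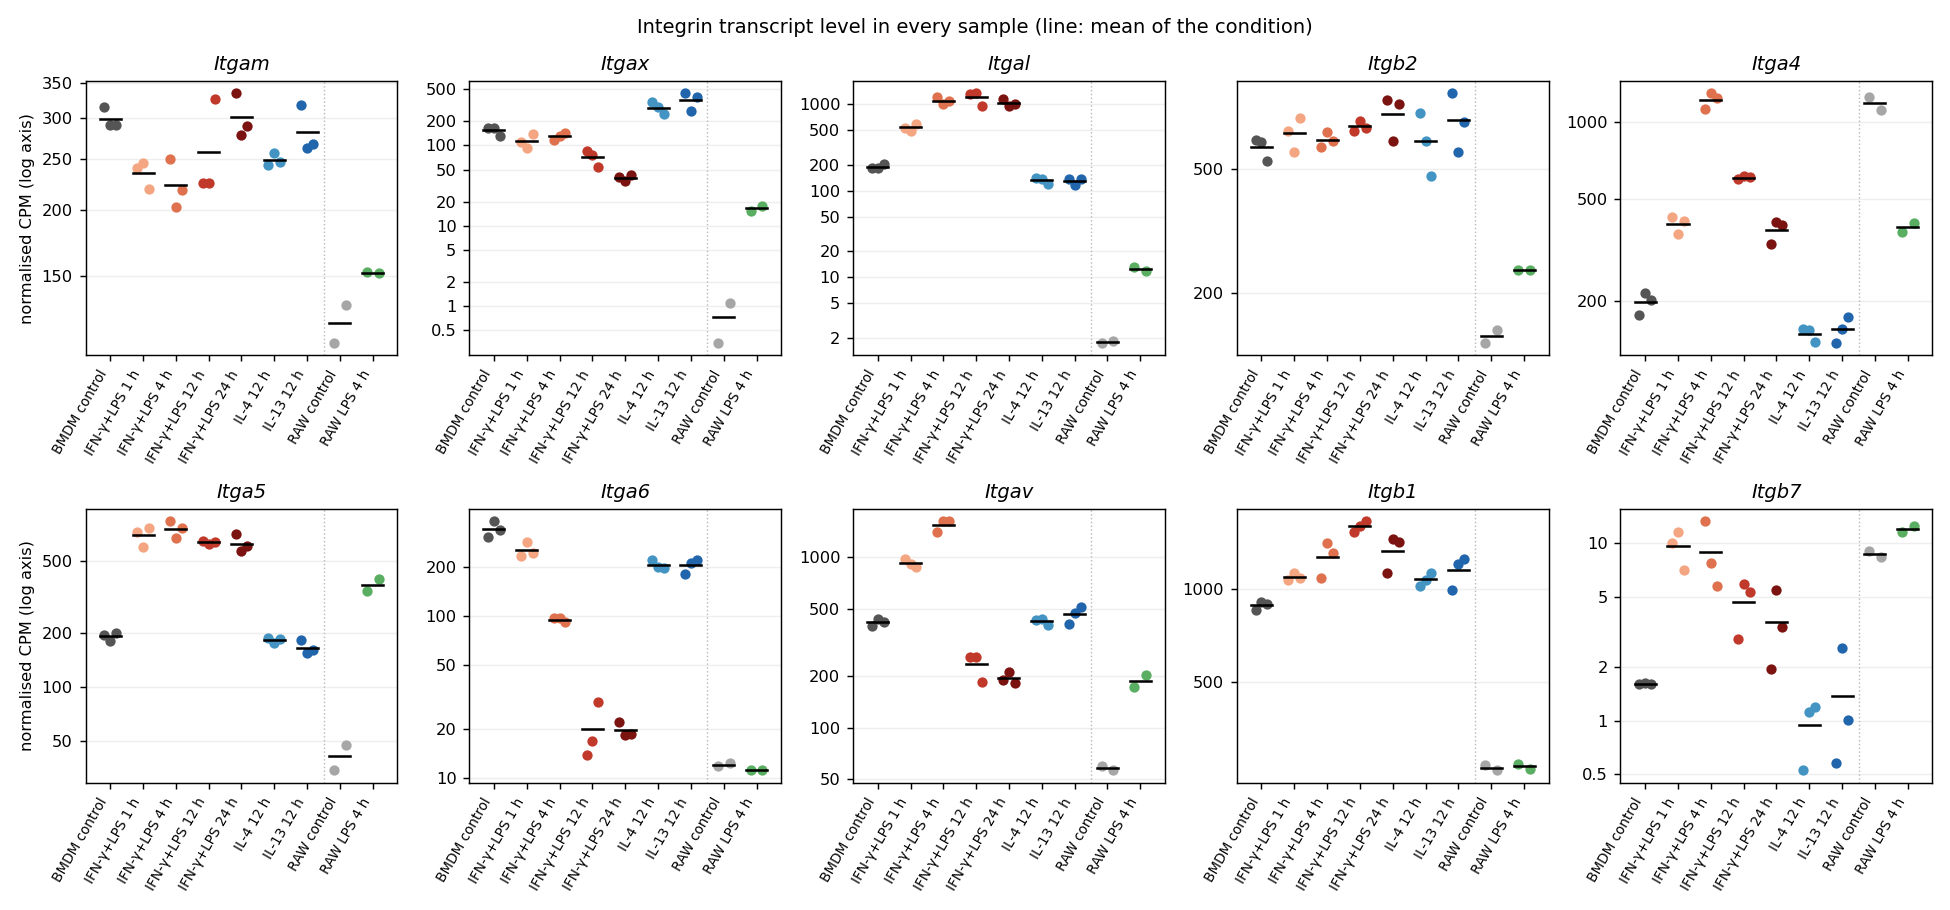
Level of each of the 10 integrin genes in every sample, in CPM on a log axis (no sample held 0 counts), by condition along the horizontal axis. Each point is 1 sample and each short line the group mean. Itgb2 and Itgam stay within a narrow band in BMDMs, whereas Itgal, Itga4, Itga5, Itga6, Itgav and Itgax spread widely between conditions.

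Across the 7 BMDM groups the subunits differed widely in how far their mean levels ranged. The highest group mean exceeded the lowest 17.5-fold for Itga6, 10.2-fold for Itgb7, 9.34-fold for Itgax, 9.22-fold for Itgal, 8.17-fold for Itga4, 7.99-fold for Itgav and 4.54-fold for Itga5. The β chains Itgb1 and Itgb2 and the α chain Itgam ranged only 1.796-fold, 1.28-fold and 1.34-fold. The variable genes were thus α chains and the scarce Itgb7, which held 1 to 18 counts per BMDM library.

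The promoters of Itgam and Itgax are shown because these neighbouring genes, both of which encode partners of Itgb2, had unlike levels across the conditions. RefSeq windows of 250 bases upstream of the start (GRCm38.p6, the build of mm10) were matched for 7 of the 10 genes, and not for Itgal, Itgb2 and Itga6. Each is written 5′ to 3′ on the strand of its gene and ends at the base before the start. Capitals mark every match, on either strand, to the letters searched, and no matches overlapped. Itgam lies at chr7:128062390-128062639 (plus strand), and its matches are GAGGAAG (PU.1) at 84 to 78 bases before the start and GGGCGG (Sp1) on the opposite strand at 47 to 42. Itgax lies at chr7:128129300-128129549 (plus strand), and its matches are TTC and GAA parted by any 4 bases (STAT6) at 127 to 118 and TGANTCA (AP-1) at 56 to 50.
Itgam: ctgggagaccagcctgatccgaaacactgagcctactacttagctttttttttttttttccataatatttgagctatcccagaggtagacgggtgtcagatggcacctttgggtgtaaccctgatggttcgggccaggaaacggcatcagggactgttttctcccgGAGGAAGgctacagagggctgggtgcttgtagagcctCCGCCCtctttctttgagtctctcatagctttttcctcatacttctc
Itgax: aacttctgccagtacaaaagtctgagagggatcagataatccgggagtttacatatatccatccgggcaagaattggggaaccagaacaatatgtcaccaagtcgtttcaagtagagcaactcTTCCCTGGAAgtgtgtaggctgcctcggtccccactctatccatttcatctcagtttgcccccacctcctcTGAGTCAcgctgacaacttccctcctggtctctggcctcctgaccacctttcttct
Of 32851 such windows over all genes, 10.6% held the PU.1 letters, 32.7% the Sp1 letters, 5.85% the STAT6 letters and 6.75% the AP-1 letters. Itgax was the only one of the 7 windows with the STAT6 or the AP-1 letters. None of the 7 held TTCNNNGAA (STAT), GAAA repeated after any 2 bases (IRF) or GGGA and CC parted by any 4 bases (NF-kB), which 7.02%, 2.98% and 17.6% of all windows held. A match is a run of letters and not a measured binding site.

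Under IFN-γ and LPS, Itgal, Itga4 and Itga5 were upregulated at all 4 times, Itga6 was downregulated at all 4, Itgav was first up and then down, and Itgax fell late. The number of genes past an adjusted p of 0.01 was 8 of 10 at 1 h, against 26.0% of all 9568 genes tested. Of these, 5 were higher (background 14.7%) and 3 lower (11.3%). At 4 h it was 8 of 10 (background 51.5%), 6 higher (26.0%) and 2 lower (25.6%). The 12 h count was 7 (47.3%), 4 higher (23.9%) and 3 lower (23.4%), and the 24 h count 8 (45.2%), 5 higher (23.9%) and 3 lower (21.3%). The 1 h count was 5 without control sample 2 or the 1 h sample 1. The median absolute log2 difference of the 10 genes was 0.73 at 1 h and 1.88 at 4 h, against 0.35 and 0.68 over all genes tested. Past the study's further cutoff of 1.5 on the log2 scale were Itga5 and Itgb7 upward at 1 h (5.04% of all genes), and at 4 h Itgal, Itga4, Itga5, Itgav and Itgb7 upward (11.4% of all genes) and Itga6 downward (11.4%). Itgb7 passed the filter on low counts only through its 1 h and 4 h samples and so had to differ there. Without it the counts were 7 of 9 at both times, with 4 higher at 1 h and 5 at 4 h. The medians above include Itgb7 as well. Ranked by absolute log2 difference, the middle gene of the other 9 was Itga6 at 1 h (-0.46) and Itgav at 4 h (1.85). Between successive times, 4 of 10 passed from 1 to 4 h (background 38.9%), 5 from 4 to 12 h (35.9%) and 2 from 12 to 24 h (14.2%). Without the 12 h sample 3 the last count was 5. Comparisons of 24 h with other times cross the split in Rn45s opposite-strand share given above. These calls depend on the assumption of TMM scaling that most genes do not change. With library size alone the median log2 difference of all genes shifted by -0.19 at 1 h, by -0.53 at 4 h, by -0.31 at 12 h and by -0.22 at 24 h. The share of called genes that were higher then went from 56.6% to 35.6%, from 50.4% to 24.3%, from 50.6% to 31.1% and from 52.8% to 36.0% at these times. The steps from 1 to 4 h (shift -0.34, 51.0% to 27.0%), from 4 to 12 h (shift 0.22, 46.4% to 65.6%) and from 12 to 24 h (37.4% to 52.2%) moved likewise. Among differences of the 10 genes past the threshold under either scaling, only those of Itgb2 and Itgb1 at 4 h changed direction. Ranges given below for calls that were lost are over all fits that left out 1 sample.

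Among the partners of Itgb2, Itgal was upregulated early and stayed high under IFN-γ and LPS. Control samples held 184, 184 and 201 CPM of Itgal. It rose to 536, 495 and 593 CPM at 1 h and 1212, 1003 and 1087 CPM at 4 h. The values were 1310.0, 1327 and 949 CPM at 12 h, with sample 3 lowest, and 1157, 941 and 1005 CPM at 24 h. Every stimulated sample was above every control sample. The rise was 2.80-fold at 1 h (log2 fold change 1.48, SE 0.12, adjusted p = 4.74e-13, quasi-likelihood test of edgeR, Benjamini-Hochberg adjustment over all genes) and 5.58-fold at 4 h (log2 fold change 2.48, SE 0.12, adjusted p = 6.94e-20). It was 6.11-fold at 12 h and 5.44-fold at 24 h. The 1 h to 4 h step was itself called (log2 fold change 1.00, adjusted p = 1.10e-09), whereas the later steps were 0.13 and -0.17 on the log2 scale and not called. Without the 12 h sample 3 both later steps passed, at 0.29 and -0.33. T cells also express Itgal. The summed level of 5 T cell markers was 0 to 1.61 CPM in control and 0.507 to 1.68 CPM at 1 h, which overlap, and 10.7 to 19.5 CPM at 4 h, 4.13 to 11.1 CPM at 12 h and 2.94 to 5.48 CPM at 24 h. All of it came from Cd247 and Lck, and the defining T cell genes Cd3d, Cd3e and Cd3g were at 0 in every sample.

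Itgam, the α chain of Mac-1, moved little. Control values were 314, 290.0 and 290.0 CPM, against 240.0, 246 and 219 CPM at 1 h and 250.2, 202 and 219 CPM at 4 h, with no overlap of either group with control. Itgam fell at 4 h by 0.47 on the log2 scale (SE 0.11, adjusted p = 3.66e-04), a call lost without the 4 h sample 2 at -0.38. The fall at 1 h (log2 fold change -0.37, adjusted p = 0.00553) was lost without any one of the control or 1 h samples or the 4 h sample 3 (range -0.40 to -0.31), and DESeq2 gave an adjusted p of 0.0187. At 12 h the values were 225, 225 and 325 CPM and the difference did not pass (-0.25, adjusted p = 0.0454), although it did without sample 3, at -0.42, with library size alone, at -0.57, and with at least 10 counts in every sample (-0.36, adjusted p = 0.00634). At 24 h the level was 300.2 ± 29.3 CPM, close to the 298 ± 13.7 CPM of control (95% interval of the log2 difference -0.20 to 0.22).

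Itgax, the α chain of complement receptor 4, declined late. Control samples held 162, 166 and 132 CPM, and 1 h and 4 h samples held 112, 93.5 and 139.9 CPM and 116, 129.9 and 142 CPM, both overlapping control. The values were 85.1, 75.6 and 53.7 CPM at 12 h and 40.7, 35.9 and 42.6 CPM at 24 h, below every control sample. Itgax fell 2.22-fold by 12 h (log2 fold change -1.15, SE 0.14, adjusted p = 9.12e-09) and 3.86-fold by 24 h (log2 fold change -1.95, SE 0.15, adjusted p = 3.96e-14). Both the 4 h to 12 h step (log2 fold change -0.85) and the 12 h to 24 h step (-0.80) were called. The 1 h difference was called at -0.44 (adjusted p = 0.00915) but lost in 11 of the 15 fits that each left out 1 sample, all except those without control sample 3, 1 h sample 3, 12 h sample 1 or 12 h sample 3, with a range of -0.59 to -0.31. DESeq2 put it at an adjusted p of 0.0245, and at 4 h it did not pass (-0.30, adjusted p = 0.0591), although it did with library size alone, at -0.83, and with at least 10 counts in every sample (-0.46, adjusted p = 0.00479). Dendritic cells express Itgax. The summed level of 5 dendritic cell markers was 0 to 0.544 CPM in control, 13.3 to 25.4 CPM at 12 h and 17.4 to 21.1 CPM at 24 h. Nearly all of the difference was Ccr7, a chemokine receptor, at a mean of 0 CPM in control, 18.2 CPM at 12 h and 19.0 CPM at 24 h. Flt3 and Siglech were at 0 at both times, Zbtb46 at 12 h and Xcr1 at 24 h.

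Itgb2, the shared β2 chain, held 532 to 618 CPM in control and 590.0 to 658 CPM at 4 h, which overlap. Its 4 h log2 difference was 0.03 (95% interval -0.17 to 0.23) and was -0.50 and past the threshold (adjusted p = 5.20e-05) with scaling by library size alone. At 24 h Itgb2 was called at 0.35 (adjusted p = 0.00260), with values of 833, 613 and 811 CPM, of which sample 2 lay within the control range. That call was lost without control sample 3 or the 24 h samples 1 or 3 (range 0.28 to 0.49), with DESeq2 (adjusted p = 0.0108) and with library size alone (adjusted p = 0.284).

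Per length, the makeup of the β2 partners described here (Itgal, Itgam and Itgax) shifted. Levels were divided by the summed exon length of each gene in GENCODE M21 (CPM per kb), and each α chain was taken as a share of the sum of the α chains considered for that β chain. Itgal held 24.1% ± 2.05 of the Itgal, Itgam and Itgax sum in control, 53.7% ± 1.48 at 1 h and 70.04% ± 1.15 at 4 h. Itgam held 49.3% ± 1.19 in control and 18.6% ± 0.577 at 4 h. Itgax held 26.6% ± 2.53 in control and 3.68% ± 0.341 at 24 h. In control the shares of Itgal (22.5% to 26.4%) and Itgax (23.8% to 28.7%) overlapped. Itgal held the largest share from 1 h on, when Itgam held 30.7%. Shares of RNA do not give shares of dimers.

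**Figure D2:**
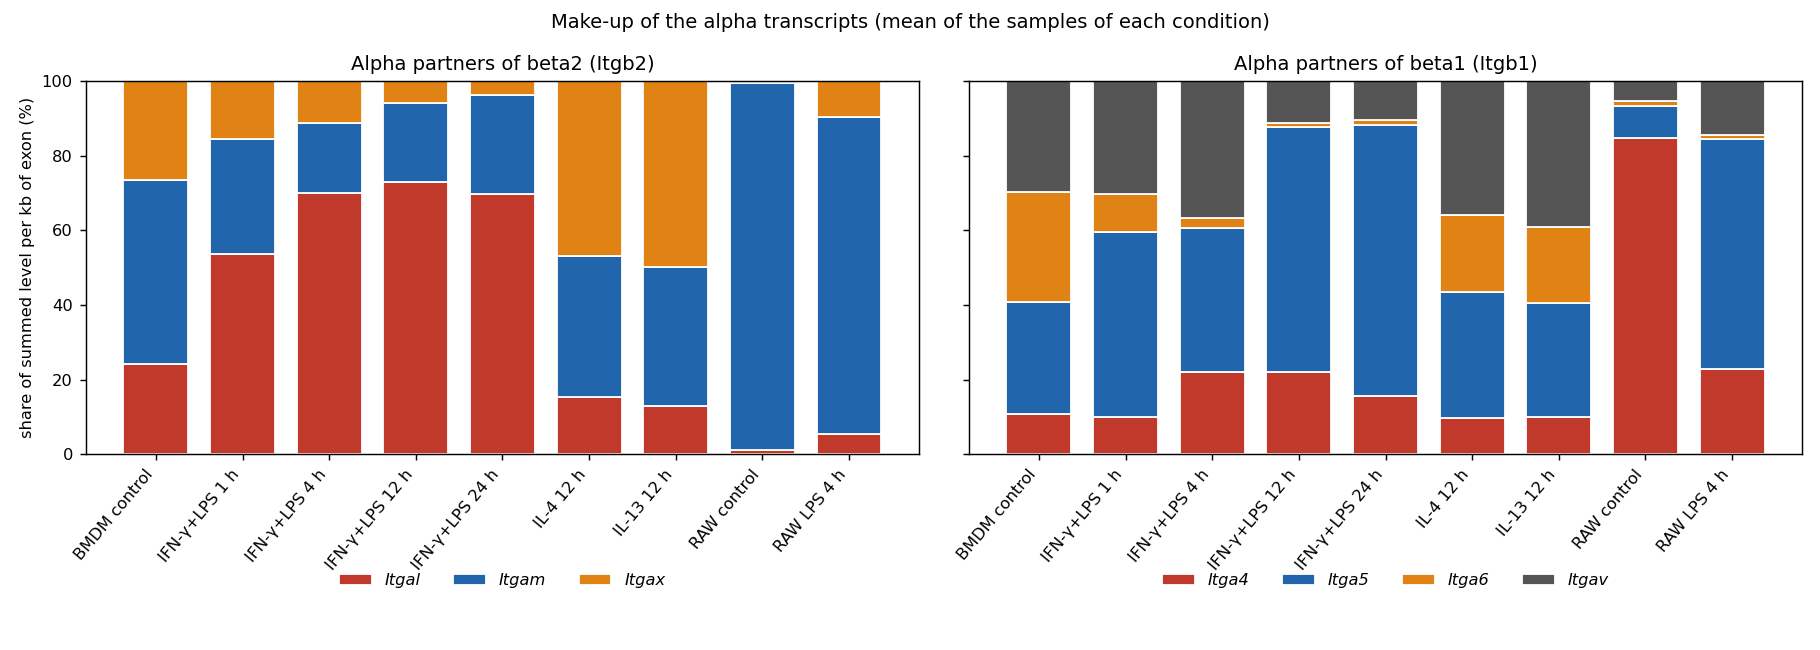
Share of each α chain, in percent of the summed CPM per kb, among the partners of Itgb2 (Itgal, Itgam, Itgax) and of Itgb1 (Itga4, Itga5, Itga6, Itgav), by condition. Stacked bars are group means. Itgal grows from 24.1% in control to 70.04% at 4 h, Itga5 from 30.0% in control to 72.6% at 24 h, and in RAW264.7 Itgam (98.3%) and Itga4 (84.8%) fill most of the untreated bars.

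The promoters of Itga5 and Itgav are shown because both genes were upregulated within 1 h but parted by 12 h. Itga5 lies at chr15:103366792-103367041 (minus strand), with GGGCGG (Sp1) on the opposite strand at 149 to 144 and at 6 to 1 bases before the start. Itgav lies at chr2:83724147-83724396 (plus strand), with GAGGAAG (PU.1) on the opposite strand at 8 to 2.
Itga5: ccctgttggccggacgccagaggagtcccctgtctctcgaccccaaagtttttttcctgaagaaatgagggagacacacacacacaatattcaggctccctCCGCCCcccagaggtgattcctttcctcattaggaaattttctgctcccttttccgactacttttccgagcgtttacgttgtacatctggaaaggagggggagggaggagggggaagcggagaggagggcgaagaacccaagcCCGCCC
Itgav: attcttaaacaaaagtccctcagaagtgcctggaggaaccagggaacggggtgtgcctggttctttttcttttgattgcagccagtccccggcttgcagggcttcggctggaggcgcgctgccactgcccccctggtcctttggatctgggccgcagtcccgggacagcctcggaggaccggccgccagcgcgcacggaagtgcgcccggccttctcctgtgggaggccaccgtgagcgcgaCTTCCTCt
Capitals again mark every match to the letters listed above. The Sp1 letters were found in the windows of 4 genes (Itgam, Itga4, Itga5 and Itgb1) and the PU.1 letters in those of Itgam and Itgav.

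Itga5, the α chain of the fibronectin receptor, rose within 1 h and remained high. Its values were 195, 181 and 199 CPM in control and 722, 597 and 759 CPM at 1 h. They were 829.6, 666 and 756 CPM at 4 h, 642, 623 and 637 CPM at 12 h and 704, 564 and 601 CPM at 24 h. Stimulated samples were all above control, and in the order of level (24 h, 12 h, 1 h, 4 h) each time point overlapped the next. The rise was 3.54-fold at 1 h (log2 fold change 1.82, SE 0.10, adjusted p = 2.02e-20), 3.77-fold at 4 h, 3.21-fold at 12 h and 3.24-fold at 24 h. No step between successive times passed the test for Itga5.

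Itga4, the α chain of VLA-4, peaked at 4 h. It held 175, 214 and 201 CPM in control, 425, 362 and 409 CPM at 1 h and 1118, 1288 and 1232 CPM at 4 h. It then held 596, 610.4 and 608 CPM at 12 h and 331, 405 and 395 CPM at 24 h. All stimulated samples lay above control, and the 4 h samples lay above all others in BMDMs. The rise was 5.93-fold at 4 h (log2 fold change 2.57, SE 0.10, adjusted p = 1.78e-27) and 1.91-fold at 24 h (log2 fold change 0.93, adjusted p = 1.55e-11). All 3 steps passed, at 1.58 from 1 to 4 h, -0.99 from 4 to 12 h and -0.64 from 12 to 24 h on the log2 scale.

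Itgav, whose product binds vitronectin and other RGD ligands, rose and then fell below control. Control samples held 395, 434 and 416 CPM, 1 h samples 974, 909 and 884 CPM and 4 h samples 1407, 1633 and 1633 CPM. The values were 259.8, 259 and 186 CPM at 12 h, sample 3 lowest, and 191, 211 and 182 CPM at 24 h. The 1 h and 4 h samples all lay above control and the 12 h and 24 h samples all lay below it. Itgav was 3.61-fold higher at 4 h (log2 fold change 1.85, SE 0.10, adjusted p = 1.39e-21) and 2.14-fold lower at 24 h (log2 fold change -1.10, SE 0.10, adjusted p = 7.84e-13). The turn lay between 4 and 12 h, where the log2 step was -2.72 (adjusted p = 4.35e-26).

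Itga6, a laminin receptor chain, showed the widest range of the 10 genes in BMDMs. It fell from 309, 385 and 341 CPM in control to 234, 287 and 246 CPM at 1 h and 96.7, 96.5 and 92.1 CPM at 4 h. It was at 13.9, 16.9 and 29.5 CPM at 12 h, with sample 3 highest, and 22.04, 18.4 and 18.6 CPM at 24 h. Every stimulated sample lay below every control sample. The decrease was 3.77-fold at 4 h (log2 fold change -1.91, SE 0.12, adjusted p = 2.08e-18), 17.6-fold at 12 h and 17.5-fold at 24 h. At 1 h it was 1.38-fold (adjusted p = 5.16e-04), a call lost without control sample 2 or the 1 h sample 1, with a range of -0.55 to -0.37 on the log2 scale.

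Itgb1, the shared β1 chain, changed modestly. Control samples held 852, 909.7 and 895 CPM and 12 h samples 1528, 1596 and 1649.8 CPM, which do not overlap. Itgb1 rose 1.74-fold at 12 h (log2 fold change 0.80, SE 0.09, adjusted p = 1.78e-10) and 1.49-fold at 24 h. At 4 h it was called at a log2 fold change of 0.46 (adjusted p = 3.04e-05), which turned to -0.08 with scaling by library size alone. At 1 h it did not pass (0.27, adjusted p = 0.0169). The step from 4 to 12 h (0.34) was lost without the 4 h sample 1, at 0.23.

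Itgb7, the gut homing β chain, was scarce. Each control sample held 3 counts (1.61, 1.63 and 1.61 CPM), against 10.1, 11.6 and 7.10 CPM at 1 h and 13.3, 7.78 and 5.75 CPM at 4 h, with no overlap. Summed over samples, 50 counts at 1 h against 9 in control gave a ratio of 5.82 (95% exact counting interval 2.83 to 13.5), and 32 against 9 gave 5.45 at 4 h (2.54 to 12.98). The gene passed the filter on low counts only through these 2 time points, so these ratios are given as a description. At 12 h and 24 h it did not pass the test. Counting intervals cover counting error only.

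Per length, the partners of Itgb1 also shifted. Itga5 held 30.0% ± 2.56 of the sum of the 4 α chains in control and 72.6% ± 3.61 at 24 h. Itga6 held 29.4% ± 1.97 in control and 1.14% ± 0.484 at 12 h. Itga4 held 10.8% ± 0.581 in control and 21.99% ± 1.56 at 4 h, and Itgav held 29.8% ± 0.247 and 36.7% ± 2.81. Itga4 and Itgav also pair with other β chains, so these shares describe RNA available to Itgb1.

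**Figure D3:**
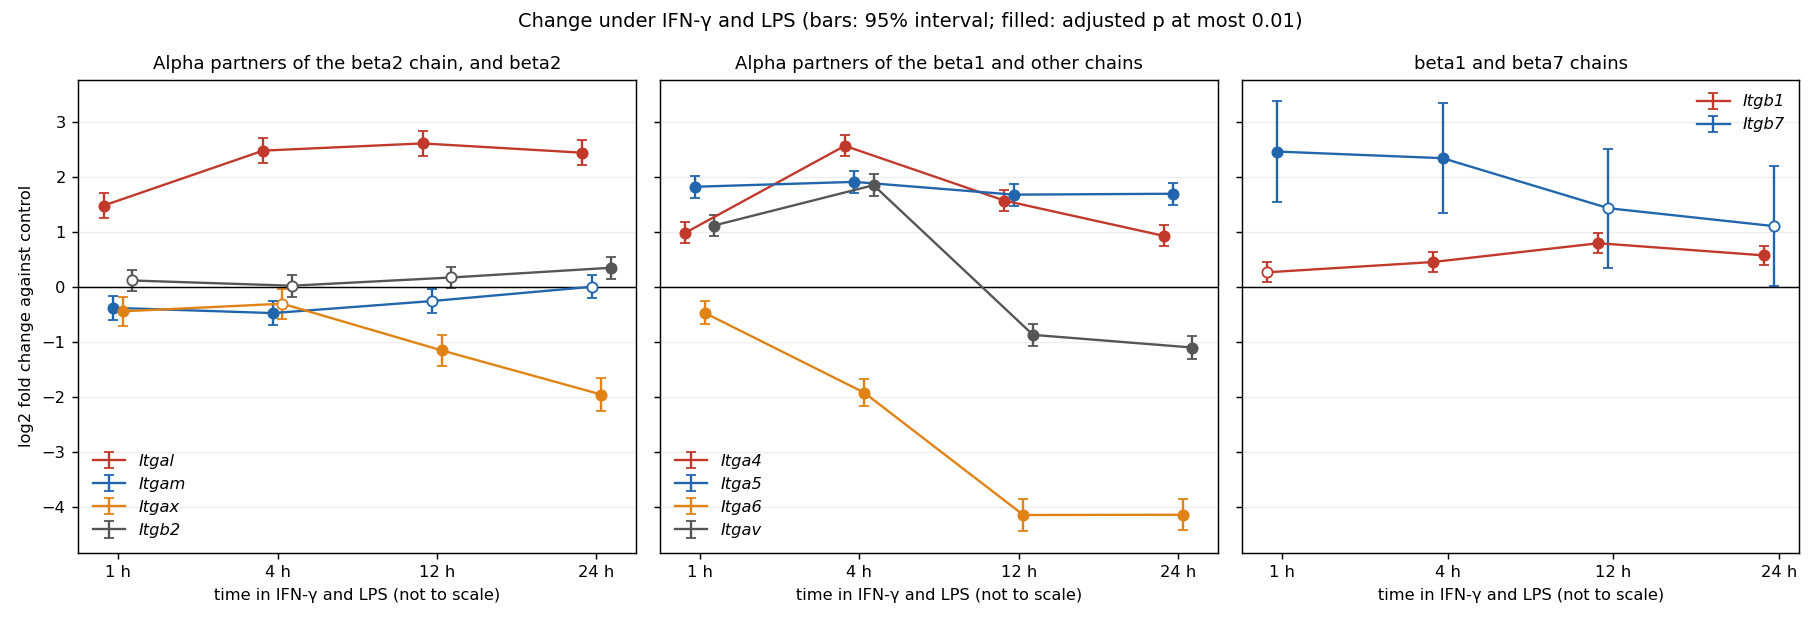
Log2 fold change of each integrin gene against control BMDMs at 1, 4, 12 and 24 h of IFN-γ and LPS, with 95% intervals. Filled points passed at an adjusted p of 0.01. Itgal and Itga5 stay high to 24 h, Itga4 and Itgav peak at 4 h, Itga6 and Itgax end lowest, and with scaling by library size alone the 4 h points of Itgb2 and Itgb1 would lie at -0.50 and -0.08.

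Under both IL-4 and IL-13 Itga6 and Itgal were called lower than in control, and so was Itga4, in fragile calls. Itgb7, at 1 to 5 counts per library, did not pass the filter on low counts, which left 9. For IL-4, 3 of 9 passed against 7.63% of 9252 genes tested, none higher (background 4.38%) and 3 lower (3.25%). This count depends on the fit, being 5 without a filter, where Itgax and Itgb1 passed as well, and 6 with only control and IL-4 samples fitted, where Itgam also passed. For IL-13, 5 of 9 passed against 10.1%, 2 higher (5.61%) and 3 lower (4.49%). The IL-13 count was 3 without control sample 1 or IL-13 sample 1 and 4 in the other fits without 1 sample, so no such fit kept all 5. The control libraries of both comparisons fall on the other side of the split in Rn45s opposite-strand share (0.0386% to 0.0543% in control against 0.00603% to 0.0214%), and its part was not tested.

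Itga6 had the lowest adjusted p of the 3 genes that fell under both cytokines. Its values were 222, 199.5 and 197 CPM after IL-4 and 182, 214 and 220.2 CPM after IL-13, all below the lowest control value of 309 CPM. The log2 fold changes were -0.75 (SE 0.10, adjusted p = 1.45e-08) and -0.76 (SE 0.09, adjusted p = 6.02e-09). Itgal held 139.7, 135 and 119 CPM after IL-4 and 135, 117 and 136 CPM after IL-13, again below every control sample, with log2 fold changes of -0.54 and -0.57 (adjusted p = 6.34e-05 and 1.64e-05). Itga4 was called at -0.42 (adjusted p = 0.00270) and -0.36 (adjusted p = 0.00803). These Itga4 calls were fragile, and DESeq2 put them at an adjusted p of 0.0111 for IL-4 and 0.0369 for IL-13. In edgeR the IL-13 call was also lost with RLE scaling (adjusted p = 0.0102), unstranded counts (0.0123) and library size alone (0.0217). It was lost too with only control and IL-13 samples fitted (0.0215). The IL-4 call was lost without control sample 2 or 3 or any IL-4 sample (range -0.49 to -0.35) and the IL-13 call in every fit without 1 sample other than control sample 1 or IL-13 sample 3 (range -0.44 to -0.28).

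Itgax moved the other way. It held 344, 297 and 248 CPM after IL-4 and 443, 268 and 402 CPM after IL-13, all above the highest control value of 166 CPM. Under IL-13 it rose 2.38-fold (log2 fold change 1.25, SE 0.20, adjusted p = 0.00218), a call lost without control sample 1 or the IL-13 samples 1 or 3 (range 1.11 to 1.44 on the log2 scale). Under IL-4 the difference was 0.94 (SE 0.20) and just missed the threshold (adjusted p = 0.0149). It passed with DESeq2 (adjusted p = 0.00116) and when only control and IL-4 samples were fitted. The 5 dendritic cell markers summed to 0 to 1.79 CPM in these 6 libraries. Per length, Itgax made up 46.8% ± 3.64 of the Itgal, Itgam and Itgax sum after IL-4 and 49.9% ± 4.89 after IL-13, against 26.6% in control.

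Itgb1 rose under IL-13 (log2 fold change 0.35, adjusted p = 7.63e-04, lost without control sample 1), from 852 to 909.7 CPM in control to 994 to 1248 CPM. Under IL-4 its difference was 0.26 (adjusted p = 0.0188). Itgam, Itgb2, Itga5 and Itgav did not pass under either cytokine, and the widest IL-4 difference among them was -0.27 for Itgam (adjusted p = 0.0378). Between IL-13 and IL-4 none of the 9 passed edgeR's test at either an adjusted p of 0.01 or an unadjusted p of 0.05, where 0.108% and 6.95% of all genes did, and none passed with DESeq2. The 95% interval of the log2 difference was -0.06 to 0.68 for Itgax and -0.20 to 0.18 for Itga6.

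**Figure D4:**
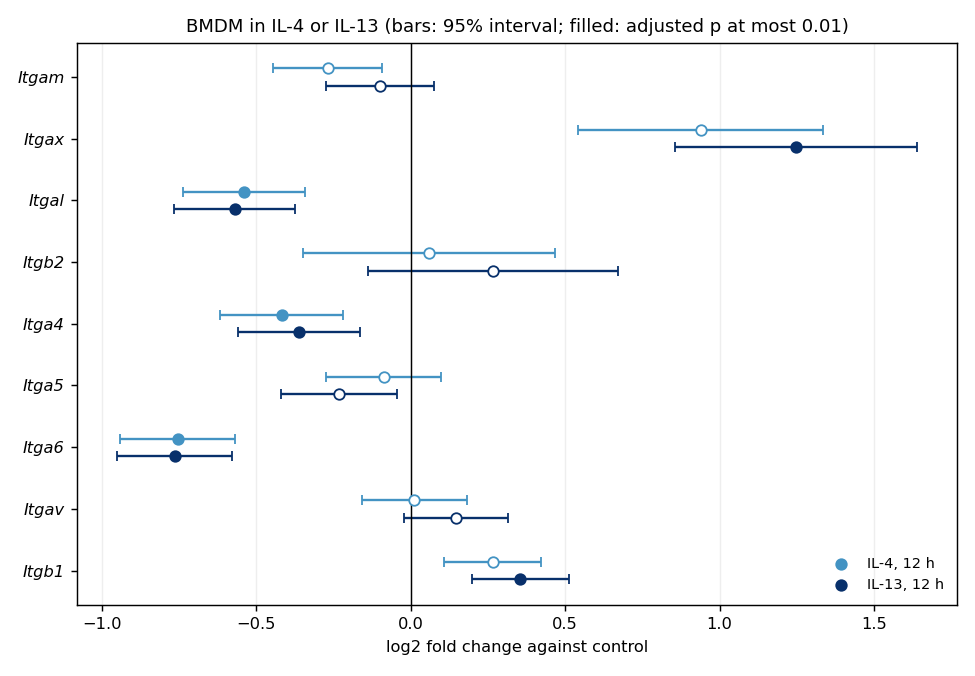
Log2 fold change of 9 integrin genes against control BMDMs after 12 h of IL-4 or IL-13, with 95% intervals. Filled points passed at an adjusted p of 0.01. Itga6 and Itgal lie below 0 under both cytokines and Itgax lies above 0, filled for IL-13 and open for IL-4.

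Compared directly at 12 h, IFN-γ and LPS on one side and IL-4 or IL-13 on the other left unlike integrin profiles. In the fit of all 25 samples, 8 of 10 passed against IL-4 and 8 of 10 against IL-13, where 41.0% and 41.0% of 10612 genes did (51.5% and 51.3% of them higher, or 29.6% and 28.03% with library size alone, shifts of -0.35 and -0.37). Higher under IFN-γ and LPS were Itgal (3.18 against IL-4 and 3.20 against IL-13 on the log2 scale), Itga4 (2.03 and 1.961), Itga5 (1.802 and 1.94), Itgb1 (0.57 and 0.47) and Itgb7. Lower were Itga6 (-3.35 and -3.35), Itgax (-2.05 and -2.37) and Itgav (-0.85 and -0.99). Itgam and Itgb2 did not pass in either, although Itgam passed against IL-13 with library size alone, at -0.50. The Itgb7 calls rest on 5, 9 and 9 counts in the 12 h libraries. Against IL-4 (2.24) the call was lost without the 12 h sample 2 or IL-4 sample 1, and against IL-13 (1.67) in 12 of 25 fits without 1 sample. With all samples, the Itgb7 call against IL-13 was lost with DESeq2 (adjusted p = 0.0213), no filter (0.0120) and unstranded counts (0.0104). Keeping Rn45s (0.0105) and library size alone (0.0413) lost it too. The count against IL-13 was 7 with DESeq2. The Itgb1 calls were lost with library size alone. These 2 comparisons share the 12 h samples, and both cross the split in Rn45s opposite-strand share (0.0827% to 0.122% at 12 h).

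RAW264.7 at rest carried a different set of integrin RNAs from resting BMDMs. All 10 genes passed in this comparison, where 65.6% of 10612 genes did. Cell source, strain, medium and M-CSF cannot be told apart in it. Rn45s opposite-strand shares also differed (0.0199% to 0.0236% in untreated RAW264.7 against 0.0386% to 0.0543% in control BMDMs), and the part of this was not tested. A list of fibroblast markers summed to 72.4 to 108 CPM in control BMDMs and 0 in untreated RAW264.7, and its part was not tested either. Only Itga4 and Itgb7, which pair with each other, were higher in the line. Itga4 held 1253 and 1115 CPM in untreated RAW264.7 against 175, 214 and 201 CPM in control BMDMs (log2 difference 2.59, SE 0.10). Itgb7 held 9.04 and 8.36 CPM, 49 counts in sum against 9 in BMDMs, a ratio of 5.38 (2.62 to 12.5). Itgal and Itgax were nearly absent from untreated RAW264.7. Itgal held 5 counts in each sample, which put control BMDMs 107-fold higher (57.8 to 223), and Itgax held 1 and 3 counts, which put them 216-fold higher (84.1 to 795). The other 6 were lower in the line, from -1.29 for Itgam to -4.83 for Itga6 on the log2 scale.

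After LPS, 7 of the 10 genes passed in RAW264.7, against 27.9% of 9406 genes tested (54.0% of them higher, or 30.4% with library size alone, which shifted the median of all genes by -0.18). Of the 7, 6 were higher (background 15.1%) and 1 lower (12.8%). Itgax and Itgal passed the filter on low counts only through their LPS samples and so had to differ, and without them 5 of 8 passed, 4 of them higher. With 2 samples each, the fit took its spread almost wholly from all genes together, and DESeq2 called 1226 genes where edgeR called 2625. Itga5 went from 34.4 and 48.0 CPM to 341 and 394 CPM, a rise of 9.21-fold (log2 fold change 3.20, SE 0.10). Itgav went from 59.5 and 55.9 CPM to 174 and 203 CPM (1.75, SE 0.11). Itga4, in contrast, fell from 1253 and 1115 CPM to 372 and 401 CPM (-1.58, SE 0.07). None of these groups overlapped.

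The genes of Itgb2 and the 3 partners described here (Itgal, Itgam and Itgax) were all higher after LPS in RAW264.7, Itgax and Itgal from few counts. Itgax went from 4 to 89 summed counts, a ratio of 23.3 (8.77 to 87.2), and Itgal from 10 to 67, a ratio of 7.003 (3.58 to 15.3). Itgb2 went from 139 and 153 CPM to 237 and 238 CPM (log2 fold change 0.74, adjusted p = 2.58e-15). Itgam went from 112 and 132 CPM to 152 and 151 CPM and was called at 0.36 (adjusted p = 0.00121), but the call was lost with DESeq2 (adjusted p = 0.0709), with library size alone (0.15) and in the fits without RAW264.7 control sample 1 or either LPS sample (range 0.25 to 0.49 on the log2 scale). Itgam still made up 85.0% of the Itgal, Itgam and Itgax sum per length after LPS. Itga6, Itgb1 and Itgb7 did not pass, with 95% intervals of -0.62 to 0.46, -0.11 to 0.21 and -0.06 to 1.08.

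**Figure D5:**
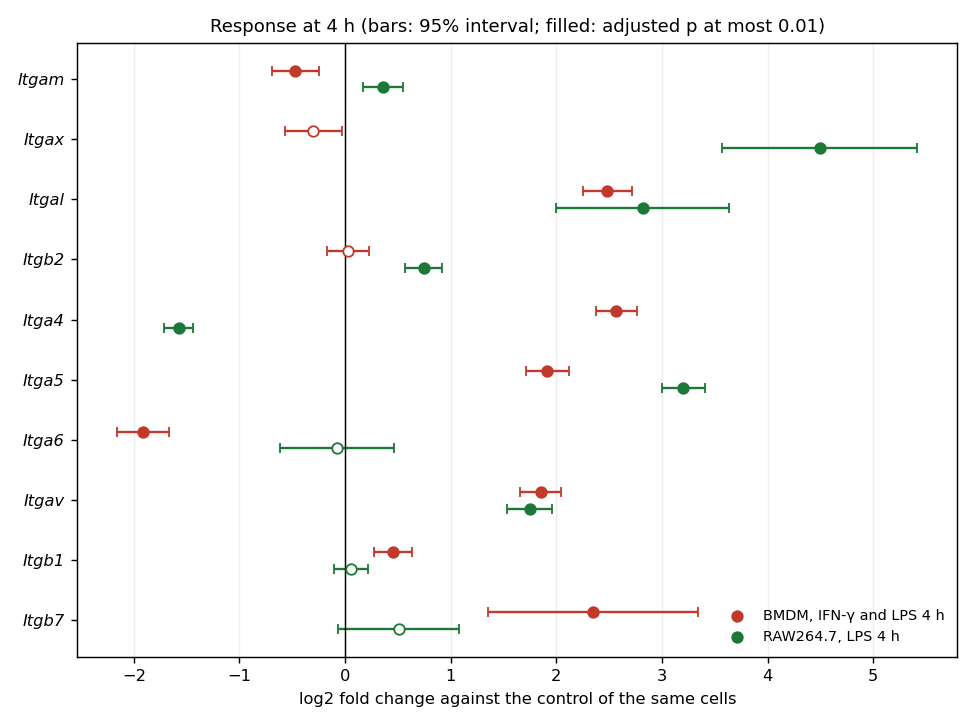
Log2 fold change at 4 h of each integrin gene in RAW264.7 given LPS and in BMDMs given IFN-γ and LPS, each against its own control, with 95% intervals. Filled points passed at an adjusted p of 0.01. Itga4 lies on opposite sides of 0 in the line and the primary cells, and Itgb2 and Itgb1 in BMDMs turn to -0.50 and -0.08 with library size alone.

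The 4 h responses of the line and of BMDMs were then compared with each other in the fit of all 25 samples. The stimuli differ, since RAW264.7 received no IFN-γ, so source, strain, medium, M-CSF and IFN-γ cannot be told apart. Rn45s opposite-strand shares differed too (0.0249% to 0.0283% after LPS in RAW264.7 against 0.0665% to 0.0674% in 4 h BMDMs), and the part of this was not tested. Of the 10 genes, 7 differed in response (background 25.0%, 39.0% of it upward, or 70.1% with library size alone, a shift of 0.44), a count that was 4 without RAW264.7 control sample 1. Itga4 differed most in the downward direction, at -4.24 (SE 0.15, adjusted p = 2.49e-37), since it rose 5.93-fold in BMDMs and fell 2.98-fold in the line. Itgax differed upward by 4.66 (SE 0.77), Itga6 by 1.74, Itga5 by 1.19 and Itgam by 0.73, the last lost without RAW264.7 control sample 1. Itgb1 (-0.50) and Itgb7 (-1.93) differed downward, but these calls were lost in 6 and 9 of 25 fits without 1 sample. The Itgb1 call was also lost with DESeq2 (adjusted p = 0.0147), with Rn45s kept (0.0137) and with library size alone (at -0.06). At least 10 counts in every sample lost it too (0.0664). The Itgb7 call was also lost with DESeq2 (adjusted p = 0.0311), library size alone (0.0404), unstranded counts (0.0141) and Rn45s kept (0.0109). For Itgal the difference was 0.23 (95% interval -0.57 to 1.03), for Itgav -0.20 (-0.53 to 0.12) and for Itgb2 0.62 (0.12 to 1.13, adjusted p = 0.0721). None of these passed. The Itgb2 difference did pass without a filter (0.60, adjusted p = 0.00150) and with library size alone (1.07, adjusted p = 0.00548).

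Other integrin subunits were mostly scarce. Of 17 further subunits, 5 passed the filter in the time course. The β chains that pair with Itgav behaved unlike each other. Itgb3 fell from 18.2 ± 0.534 CPM in control to 1.71 ± 0.208 CPM at 1 h (log2 fold change -3.40, adjusted p = 4.23e-10) and Itgb5 from 471 ± 9.13 CPM to 83.5 ± 7.96 CPM at 12 h (-2.54, adjusted p = 2.08e-26). Itgb8 was at 0 counts in the 3 control samples and at 31.2 ± 5.53 CPM at 4 h, and it entered the fit only through stimulated samples, so no test of it is given. In all, 0 rose and 1 fell at 1 h, 2 rose and 2 fell at 4 h, 1 rose and 3 fell at 12 h and 1 rose and 2 fell at 24 h, Itgb8 among those that rose at 4, 12 and 24 h. Of all genes, 14.7% rose and 11.3% fell at 1 h, 26.0% and 25.6% at 4 h, 23.9% and 23.4% at 12 h and 23.9% and 21.3% at 24 h. The counts of these lists are descriptions and are read against those shares. Under IL-4 Itgb3 rose to 42.4 ± 6.35 CPM (1.21) and under IL-13 to 56.3 ± 5.29 CPM (1.60), while Itga9, another partner of Itgb1, fell by 1.46 and 1.996. Itgad, a further partner of Itgb2 that is not in the shares per length, was also called higher under IL-13. It did not pass the filter in the time course, which holds the same control samples, so this call is a description. In RAW264.7 2 were tested and Itgb5 fell by 0.45.

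Some ligands of these integrins are made by the macrophages themselves, and Icam1 and C3 were upregulated. Of 30 listed, 14 were tested, and 5 rose and 3 fell at 1 h, 7 rose and 2 fell at 4 h, 7 rose and 5 fell at 12 h and 4 rose and 3 fell at 24 h, with list medians of 0.24, 0.36, 0.02 and -0.17 on the log2 scale, against -0.03, -0.07, -0.03 and 0.02 over all genes. Called in either direction were 8, 9, 12 and 7 of the 14, beside 26.0%, 51.5%, 47.3% and 45.2% of all genes. Icam1, the ligand of LFA-1 and Mac-1, went from 39.5 ± 3.17 CPM in control to 1521 ± 184 CPM at 1 h and 5305 ± 256 CPM at 4 h (log2 fold change 7.01, adjusted p = 6.33e-42), and was still at 968 ± 12.1 CPM at 24 h. Vcam1, the ligand of VLA-4, was at 3.06 ± 0.290 CPM in control and 68.7 ± 9.09 CPM at 4 h. It entered the fit only through stimulated samples and so had to differ, and no test of it is given. Vcam1 is among the ligands counted as rising at 1, 4 and 12 h. C3, whose cleaved form is bound by Mac-1 and complement receptor 4, went from 9.001 ± 2.12 CPM to 1839 ± 136 CPM at 24 h (7.66), while Mfge8, a bridging ligand of Itgav integrins, fell by 2.04. Fn1 (fibronectin), a ligand of both VLA-4 and the Itga5 dimer that is named after its values were seen, passed at no time, with log2 differences of -0.24, 0.13, -0.76 and -0.75 and a lowest adjusted p of 0.0300. Under IL-4 and IL-13 2 of 12 rose and none fell, where 4.38% and 5.61% of all genes rose: C3 by 1.804 and 1.74 and Spp1 (osteopontin) by 0.56 and 0.60. In RAW264.7 5 of 9 rose (background 15.1%) and none fell, Icam1 among them (2.01).

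Genes of inside-out activation, which lead through the GTPase Rap1, talin and kindlin to the integrin tail, were called in both directions. The list also holds Rap1gap2 and Sipa1, GTPase-activating proteins of Rap, of which Rap1gap2 rose and Sipa1 fell at 4 h. The counts therefore give no direction of activation. Of 20 tested, 5 rose and 4 fell at 1 h, 4 rose and 7 fell at 4 h, 7 rose and 5 fell at 12 h and 6 rose and 6 fell at 24 h, with a 4 h median of -0.23 against -0.07. In either direction this was 9, 11, 12 and 12 of 20, beside 26.0%, 51.5%, 47.3% and 45.2% of all genes, and with the 4 h count near that of all genes nothing about these genes is read from it. Rapgef2, an exchange factor of Rap, rose from 23.0 ± 4.86 CPM to 474 ± 24.4 CPM at 4 h (4.30, adjusted p = 5.13e-31), whereas Rasgrp3, another, fell from 33.7 ± 7.73 CPM to 0.259 ± 0.449 CPM (adjusted p = 7.01e-15). Rap1b itself rose at 1 h (1.14). Under each of IL-4 and IL-13 only the adaptor Fyb passed among 19, at -0.94 and -0.92, where 7.63% and 10.1% of all genes did. In RAW264.7 5 rose and 5 fell of 18 (background 15.1% and 12.8%), with Fyb up by 1.399 and Rasgrp3 at -1.92.

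Of 10 genes listed as brakes on integrins, 3 rose and 0 fell at 1 h and 3 rose and 1 fell at 4 h. At 12 h 4 rose and 0 fell, and at 24 h 6 rose and 0 fell. At these times 26.0%, 51.5%, 47.3% and 45.2% of all genes were called in either direction. Those called higher were 14.7%, 26.0%, 23.9% and 23.9%. Cd47, whose role as a brake is not settled, was among those that rose at each time and in RAW264.7. The 24 h median was 0.66 against 0.02 for all genes. Filip1l, a filamin-interacting protein, was at 29.3 ± 3.99 CPM in control and 191 ± 13.03 CPM at 4 h (2.65), and Sipa1l1, a GTPase-activating protein of Rap, rose by 2.32. Sipa1l1 was also the 1 of 9 brakes that fell under IL-4 (-0.85, background 3.25%) and IL-13 (-0.68, background 4.49%). In RAW264.7 5 of 9 rose (background 15.1%) and 0 fell, with Filip1l at 2.26 and Dok2 at 1.10.

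Outside-in signalling genes, which carry the signal from bound integrins to Src kinases and actin, included Src itself, which rose. Of 27 tested, 8 rose and 5 fell at 1 h, 12 rose and 5 fell at 4 h, 10 rose and 9 fell at 12 h and 11 rose and 10 fell at 24 h, with a 4 h median of 0.42 against -0.07. In either direction this was 13, 17, 19 and 21 of 27, beside 26.0%, 51.5%, 47.3% and 45.2% of all genes, and at 4 h 26.0% of all genes rose and 25.6% fell. Src, the founding kinase of its family, rose from 25.9 ± 2.37 CPM to 625 ± 43.8 CPM at 4 h (4.53, adjusted p = 5.95e-33). Tns1 (tensin 1), an actin linker, fell from 94.5 ± 13.6 CPM to 5.41 ± 2.39 CPM (-4.14), and the tetraspanin Cd9 fell by 3.15 at 24 h. Under IL-4 4 of 26 rose and 0 fell and under IL-13 5 rose and 2 fell (background 7.63% and 10.1% in either direction), with Cd9 (0.67 and 0.81) and Cd151 (0.85 and 1.03) up in both. In RAW264.7 15 of 25 rose (background 15.1%) and 0 fell, led by Src (4.08) and Fgr (3.85).

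Genes with the pattern most like each variable subunit over the 21 BMDM samples are given by Pearson's r of log2 CPM among 7758 genes, as a description, since the samples share controls and fall into groups. Nearest to Itgal was Il12b (r = 0.991), to Itga4 Peli1 (0.991) and to Itga5 Irg1 (0.990). Nearest to Itga6 was Itgb5 (0.985), to Itgav Sirt1 (0.975) and to Itgax Il6st (0.951), followed by Vwf (0.950) and Mrc1 (0.948). Itgb2 and Itgam had no gene above 0.769 and 0.850.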

How the data were processed

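RNA was sequenced from 25 samples after ribosomal RNA depletion and directional library construction. Per the labels and the study's methods, the authors trimmed reads with Trimmomatic 0.33, aligned them to mm10 with STAR 2.5.1 and deposited raw counts per gene in 3 columns (unstranded, sense and antisense strand); the annotation release is not given in the sources used here. Replicates were not pooled. The study describes those of BMDMs as biological triplicates from separate RNA preparations; no label says that they came from separate mice or cultures, so p-values measure the spread between these preparations. The share of reads in no gene was 62.7% to 69.1%, and antisense counts were under 1.2% of sense counts for the 10 genes.

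Sense counts without Rn45s were tested with edgeR 4.0.16 (R 4.3.3; TMM, filterByExpr by group, robust quasi-likelihood fit, Benjamini-Hochberg adjustment over all genes of a contrast, threshold 0.01). The time course (15 samples, 9568 genes), IL-4 and IL-13 (9 samples, 9252 genes) and RAW264.7 (4 samples, 9406 genes) were fitted apart, and comparisons across them in all 25 samples (10612 genes). Depth was 1502618 to 2532496 counts per sample, and replicates differed by more than counting noise (chi-square per degree of freedom 1.30 to 4.53). Levels per kb used exon lengths of GENCODE M21. Intervals of log2 differences are 1.96 SE. Alternatives were DESeq2 1.42.0, RLE scaling, unstranded counts, no filter, a minimum of 10 counts in every sample, Rn45s kept, a replicate block, only the groups compared, and leaving out each sample; library size alone was added after seeing the data. The script was tested on simulated counts.

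The 10 genes and the 5 lists (other subunits, ligands, inside-out, brakes, outside-in) were chosen with earlier results of these data known. From each list, at most 3 genes a comparison could be named: those past the threshold with the largest absolute log2 fold change and at least 5 CPM in the higher group. Likeness was taken among genes of at least 10 CPM, naming up to 3 per gene. Cell markers were the macrophage, T cell, dendritic cell, neutrophil, fibroblast, B cell, mast cell and megakaryocyte lists; the macrophage list summed to 19006 to 33168 CPM in BMDMs and 8578 to 10473 CPM in RAW264.7. In BMDMs the neutrophil list (6 of 7 counted here) summed to 9.25 to 46.8 CPM and the fibroblast list to 52.5 to 109 CPM. In RAW264.7 the neutrophil list summed to 0.363 to 1.39 CPM and every fibroblast marker was at 0. Over all samples the B cell, mast cell and megakaryocyte lists stayed at or below 1.79, 4.20 and 9.57 CPM.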

Additional observations from a re-analysis of the deposited data

Results flagged for a closer look

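For 7 of the 10 integrin genes the 4 h response differed between RAW264.7 and BMDMs by the interaction test in the fit of all 25 samples (edgeR, adjusted p at most 0.01). Expressed as the log2 response of the line minus that of BMDMs, the difference was 4.66 for Itgax, 1.74 for Itga6, 1.19 for Itga5, 0.73 for Itgam, -0.50 for Itgb1, -1.93 for Itgb7 and -4.24 for Itga4. The Itgb1 and Itgb7 calls were lost with DESeq2 (adjusted p = 0.0147 and 0.0311), with library size alone and with Rn45s kept. Itga4 and Itgam were called in opposite directions in the 2 sources, and both Itgam calls were lost when 1 library was left out, the BMDM call without the 4 h sample 2 and the RAW264.7 call without control sample 1 or either LPS sample. Itga4 held 175, 214 and 201 CPM in control and 1118, 1288 and 1232 CPM in stimulated BMDMs against 1253 and 1115 CPM and 372 and 401 CPM in the line. The line received LPS without IFN-γ, and the part of the stimulus, the medium, M-CSF, the strain and the cell source in these differences cannot be told apart. Rn45s opposite-strand shares also differed between the line and BMDMs, and the part of this was not tested. Groups of 2 or 3 samples were too small for a test of single outlying samples.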

How the results depend on the processing

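Among fits with all samples, 128 counts of the 10 genes called stayed within 1.5 times the reported count and 5 did not, and 1222 log2 fold changes kept their side of the threshold, 30 lost and 21 gained a call, and 2 turned with a call under one of the settings. Library size alone turned Itgb2 (-0.50) and Itgb1 (-0.075) at 4 h. The IL-4 count was 3, but 5 without a filter and 6 with only the 2 groups fitted. With at least 10 counts in every sample, which left 7 of the 10 genes, the counts were 5 for 12 h of IFN-γ and LPS against IL-4, 5 against IL-13 and 4 for the difference in 4 h response. Leaving out 1 sample gave 5 to 9 genes at 1 h, 7 to 8 at 4, 12 and 24 h, 4 to 5 from 1 to 4 h, 4 to 6 from 4 to 12 h, 2 to 5 from 12 to 24 h, 2 to 4 for IL-4, 3 to 4 for IL-13, 0 to 0 between them, 6 to 7 for RAW264.7, 7 to 8 for each of the 12 h contrasts with IL-4 and IL-13, 10 to 10 at rest and 4 to 7 for the difference in response; leaving 1 RAW264.7 sample in a group assumes that it varies like the others. The counts over all genes moved by over 1.5 times for RAW264.7 with DESeq2 (1226 against 2625) and, with at least 10 counts in every sample, for 12 h against IL-4 (2755 against 4353), against IL-13 (2749 against 4350) and at rest (4158 against 6959); between IL-13 and IL-4 they were 10, 18 without a filter, 4 with at least 10 counts and 3 to 20 with 1 sample left out. Causes were not tested.

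In the time course, deviations of same-numbered samples had a mean correlation of 0.0215 (-0.0704 to 0.176). For other pairs the mean was -0.0108 (-0.191 to 0.108). Correlations over 0.1 were seen in 3 of 30 same-numbered pairs and 2 of 60 other pairs. Whether samples of the same number came from one mouse or culture was not tested. With the replicate block the counts were 8, 8, 7 and 8 at 1, 4, 12 and 24 h, 4, 5 and 2 for the steps, 4 for IL-4, 5 for IL-13, 0 between them and 7 for RAW264.7, and 8, 8, 10 and 7 for the contrasts in all 25 samples. The block lost the 1 h call of Itgax (adjusted p = 0.0111) and gained Itgb1 at 1 h (0.00679) and Itgax under IL-4 (1.44e-05). Depth limits Itgb7 in BMDMs (1 to 18 counts a sample) and Itgal and Itgax in untreated RAW264.7 (1 to 5 counts).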
